A study of Homo sapiens with 18 samples.

Results

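The mRNAs of the mitochondrial ribosomal proteins were followed through extracellular vesicles (EVs) and cells of HEK293T, an established human embryonic kidney line. They were taken as the protein-coding genes of GENCODE release 29 whose symbol is MRPL or MRPS followed by a number and at most 1 letter. The rule gave 78 genes, 49 named for the large subunit (MRPL) and 29 named for the small subunit (MRPS), of 57865 genes in all, and each of the 78 had transcripts in the deposited table. Large-RNA libraries had been made from EVs of ATG7-/- cells (clone F2), EVs of ATG12-/- cells (clone D9), EVs of wild-type cells, ATG7-/- cells, ATG12-/- cells and wild-type cells, with 3 biological replicates in each of the 6 groups. All groups, wild type included, had been kept without serum for 24 h, and each knockout was a single clone, so the effect of a gene and that of a clone cannot be told apart. The series asked whether RNA reaches EVs through the LC3 conjugation machinery, of which ATG7 is the activating enzyme and ATG12 a ubiquitin-like component.

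Mitochondria carry ribosomes of their own, which translate the few proteins encoded in mitochondrial DNA, all of them subunits of the respiratory chain and ATP synthase. The proteins of these ribosomes are encoded in the nucleus, made on cytosolic ribosomes and imported, so that their mRNAs are cytosolic. Some have counterparts in the bacterial ribosome and others were gained during the evolution of mitochondria.

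Levels are given in TPM, the length-scaled share of a library that a gene's transcripts hold together. The sequencing depth cannot be had from TPM and is unknown here, so no counting error can be given. An exact 0 may be an estimate that failed, and such genes are called listed at 0. Genes with 1 TPM or more numbered 13255 to 14716 per EV library and 18464 to 20509 per cell library. Of the targeted genes, ATG7 mRNA was at 13.4 ± 2.22 TPM in ATG7-/- EVs and 15.9 ± 3.19 TPM in wild-type EVs, and at 10.7 ± 2.47 TPM in ATG7-/- cells and 10.8 ± 2.51 TPM in wild-type cells (SD, n = 3 each). ATG12 mRNA was at 0, 0.858 and 0 TPM in ATG12-/- EVs, against 0.844, 9.54 and 22.6 TPM in wild-type EVs, and at 7.02 ± 2.02 TPM in ATG12-/- cells and 10.4 ± 2.93 TPM in wild-type cells (SD, n = 3 each). The labels used here do not describe the alleles, and an mRNA level does not show whether the protein is lost. The summed level of 8 HEK293T markers was 298 to 493 TPM in EVs and 99.9 to 188 TPM in cells, that of 4 fibroblast markers 0.509 to 40.6 TPM in EVs and 8.11 to 26.2 TPM in cells, and that of 3 nuclear RNAs (MALAT1, NEAT1 and KCNQ1OT1) 199.8 to 939.6 TPM in EVs and 67.8 to 652.8 TPM in cells. The 4 blood markers summed to 0 to 5.79 TPM in EVs and 0.489 to 7.43 TPM in cells, and the 3 hepatocyte markers to 0.974 to 3.81 TPM in EVs and 3.05 to 5.74 TPM in cells; of these, CD3E, HBB and ALB were listed at 0 in all 18 libraries.

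The summed level of the 78 genes was higher in EVs than in cells. It was 1081, 1194 and 1725 TPM in the lowest, median and highest EV library, against 614, 715 and 880 TPM in the cell libraries, and every EV library lay above every cell library. When only transcripts annotated as protein coding were summed, rescaled to the original library total, the means were 3188 TPM in EVs and 2875 TPM in cells, against 1293 and 740 TPM with all transcripts. By group the sum averaged 1227 ± 189 TPM in ATG7-/- EVs, 1419 ± 319 TPM in ATG12-/- EVs and 1232 ± 172 TPM in wild-type EVs, and 713 ± 39.9 TPM in ATG7-/- cells, 834 ± 62.5 TPM in ATG12-/- cells and 674 ± 53.1 TPM in wild-type cells (SD, n = 3 each). Both subunits took part: the MRPL genes summed to 750 ± 181 TPM in EVs and 398 ± 44.7 TPM in cells, and the MRPS genes to 543 ± 92.1 TPM in EVs and 342 ± 67.1 TPM in cells (SD, n = 9 each). Mean TPM was higher in EVs for 61 of the 78 genes and higher in cells for 17. The sum of all protein-coding genes was also higher in EVs, at 375914 ± 12884 TPM, against 232862 ± 15615 TPM in cells (SD, n = 9 each). In bulk RNA, fewer vesicles or cells that carry an mRNA and less of it in each cannot be told apart. As a share of the protein-coding sum, the 78 genes held 0.288% to 0.441% in EVs and 0.277% to 0.341% in cells, ranges that overlap.

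**Figure D1:**
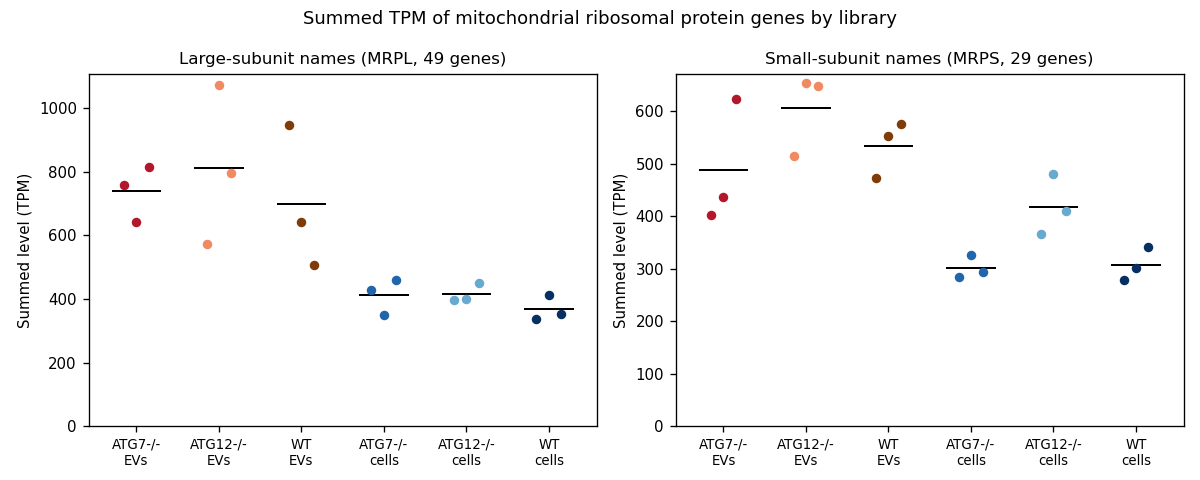
Summed TPM (vertical axes) of the MRPL genes (left) and the MRPS genes (right) in each of 18 libraries, by group; points are libraries and lines are means of 3. EV sums ran from 507 to 1072 TPM for MRPL and from 402 to 653 TPM for MRPS, and cell sums from 336 to 460 TPM and from 278 to 480 TPM.

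A few genes carried a large share of this signal. The 5 most abundant genes of a library held 32.2% to 53.1% of the summed TPM in EVs and 28.8% to 40.5% in cells. MRPS18B, a homologue of the bacterial S18 protein, ranked first in both, with 73.5, 113 and 257 TPM (lowest, median, highest) in EVs and 43.7, 64.3 and 120 TPM in cells. MRPS27, a mitochondria-specific small-subunit protein, was next in EVs at 92.9 ± 58.1 TPM, against 38.6 ± 25.4 TPM in cells (SD, n = 9 each). MRPL37, MRPL38 and MRPL3 completed the 5 highest in EVs. The 5 highest in cells were MRPS18B, MRPL3 (56.1 ± 8.64 TPM), MRPS18C (41.6 ± 11.6 TPM), MRPS27 and MRPS25 (29.1 ± 5.30 TPM; SD, n = 9). Neighbours in each of these orders differed by less than the sum of their SDs.

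Values of 0 were spread over more genes in EVs. Of the 78 genes, 45 were listed at 0 in at least 1 EV library and 25 in at least 1 cell library, and 28 reached 1 TPM in all 18. The number at 1 TPM or more was 50 to 67 per EV library and 56 to 67 per cell library. Wild-type EV libraries had 18, 24 and 26 of the genes listed at 0, against 9, 10 and 10 in ATG7-/- EVs and 15, 19 and 19 in ATG12-/- EVs, while cell libraries had 4 to 15. This difference between genotypes was not tested, and zeros over all genes were not counted. Genes of any kind at 1 TPM or more numbered 13957 to 14663 in wild-type EVs, 14160 to 14716 in ATG7-/- EVs and 13255 to 13501 in ATG12-/- EVs. Within a group, the median SD of a gene on the log2 scale was 0.85 to 1.15 in EVs and 0.37 to 0.44 in cells, so that EV values varied more between replicates. MRPL55, chosen after its values were seen, ran from 0 to 364 TPM among EV libraries (median 10.5 TPM) and from 0 to 27.3 TPM among cell libraries (median 4.88 TPM). MRPL54, a large-subunit protein gained in mitochondria, was listed at 0 in all 9 cell libraries and in 6 EV libraries, and reached 13.6 TPM in 1 ATG12-/- EV library and 26.7 and 4.52 TPM in 2 wild-type EV libraries. MRPS36, named for the ribosome but later assigned to a dehydrogenase complex, was above 0 in 2 libraries only. It was at 111 TPM in 1 wild-type EV library and 5.28 TPM in 1 ATG12-/- cell library, values that are part of the MRPS sums above.

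EVs and cells were compared gene by gene with limma on log2(TPM + 1) after scaling the libraries to a common median ratio. On this scale the median of all 24647 genes tested was -0.61, and 29.03% of them lay above 0. The 75 genes that passed the filter of at least 1 TPM in 3 libraries had a median log2 fold change of 0.08, against -0.19 for all protein-coding genes tested, and 52% of them lay above 0. In the mean over the 3 genotypes, 17 of the 75 passed an adjusted p of 0.05, where 44.1% of all genes did. Of these, 10 rose in EVs (7.66% of all genes) and 7 fell (36.4% of all genes). All 75 are protein coding, and of the 13998 protein-coding genes tested 1632 rose and 3393 fell. Without the scaling the all-gene median was -0.47, and 19 of the 75 were then called higher and 2 lower. Reads were assigned by the authors with a strand setting not given in the sources used here, and 41 of the 78 genes share exon positions with another gene, so their levels may hold reads of the neighbour. Left with the 37 that do not, 5 were called higher and 2 lower. The count rested in part on replicate 3 of the ATG12-/- EVs: without it 26 of the genes were called, 14 higher and 12 lower.

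**Figure D2:**
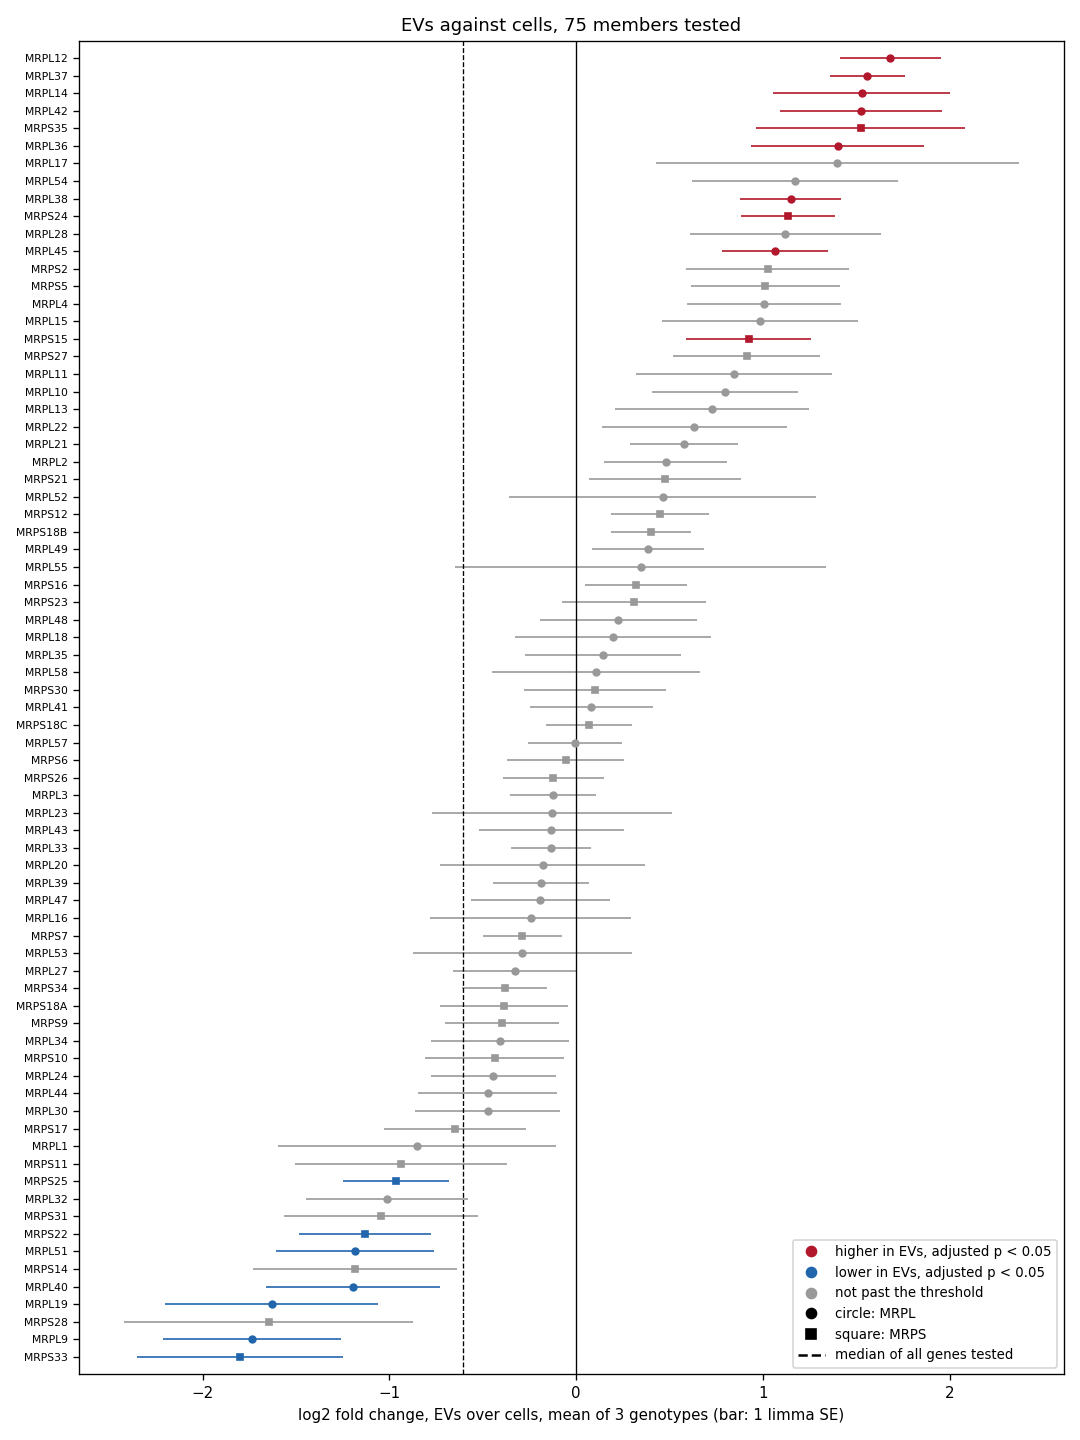
log2 fold change of EVs over cells, mean of 3 genotypes, on the log2(TPM + 1) scale (horizontal axis; bars, 1 standard error of limma) for each of the 75 genes tested, ordered by size (vertical axis). Genes past the threshold run from -1.80 for MRPS33 to 1.68 for MRPL12, and the dashed line marks the median of all genes tested, -0.61.

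MRPL37 and MRPL12 were the genes for which every EV library lay above every cell library; 5.58% of all genes tested had no overlap. MRPL37, a mitochondria-specific large-subunit protein (GRCh38 chromosome 1, 54184041 to 54225464, plus strand), had 42.0, 75.2 and 111 TPM (lowest, median, highest) in EVs, against 14.99, 18.6 and 28.8 TPM in cells. Its log2 fold change was 1.56 ± 0.20 (standard error; adjusted p = 3.26e-05). MRPL12 (chromosome 17, 81703357 to 81707526, plus strand), which forms the flexible stalk that recruits translation factors and also binds the mitochondrial RNA polymerase, had 11.2, 17.4 and 40.5 TPM in EVs and 1.83, 3.83 and 6.41 TPM in cells. Its log2 fold change was 1.68 ± 0.27 (adjusted p = 0.000228). Both genes rose in each genotype's EVs against its own cells, in fits that drew on all 18 libraries. With the other genotypes' libraries left out of the fit, MRPL12 lost this call in ATG12-/- and wild type. A replicate block ended it in all 3 genotypes. With 1 library of the genotype left out, MRPL12 kept that call in 1 of 6 fits in ATG7-/-, 3 of 6 in ATG12-/- and 2 of 6 in wild type, and MRPL37 in 2, 5 and 6 of 6. With coding transcripts alone, the mean over genotypes was 0.73 for MRPL37, and its calls in the ATG7-/- and ATG12-/- genotypes ended, as did those of MRPL12 in ATG7-/- and wild type. MRPL12 shares 701 exon positions, 68.2% of its own, on its own strand with AC139530.2, a gene at a mean of 1.02 TPM in EVs and at 0 TPM in cells. MRPL37 shares 140 exon positions with CYB5RL, 105 with AL357673.1 and 33 with SSBP3, all on the other strand.

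The other 8 genes that rose had overlapping ranges. MRPS24, a core small-subunit protein, had 23.3, 44.8 and 122 TPM in EVs and 9.25, 20.7 and 35.9 TPM in cells, with a log2 fold change of 1.13 ± 0.25 (adjusted p = 0.00239). MRPL45, which anchors the ribosome to the inner membrane, had 2.31, 9.85 and 14.4 TPM in EVs and 1.46, 2.65 and 6.07 TPM in cells (log2 fold change 1.07 ± 0.28, adjusted p = 0.00728). MRPL14, a conserved large-subunit protein, had 0.957, 8.25 and 28.4 TPM in EVs and 0, 1.76 and 2.28 TPM in cells (1.53 ± 0.47, adjusted p = 0.017). MRPL12, MRPL37, MRPS24, MRPL45 and MRPL14 kept their calls in each of 18 fits that left out 1 library and in 7 other settings. Of these genes, MRPL45 and MRPL14 share no exon positions with another gene. MRPL12, MRPL37 and MRPS24 do, and drop out of the count when such genes are left out. MRPS24 shares 606 positions on its own strand with URGCP-MRPS24, which was at 0 TPM in EVs and cells. MRPL38 rose by 1.15 ± 0.27 and MRPL42 by 1.53 ± 0.43 on the log2 scale (adjusted p = 0.0034 and 0.0108), but both turned to -0.53 and -1.30 when only transcripts annotated as protein coding were summed. MRPL36 (1.40 ± 0.46, adjusted p = 0.0238) was listed at 0 in 8 of 9 cell libraries. It could pass the filter of 1 TPM in 3 libraries only through EV libraries, where it is higher, so its place among the genes that rose depends on that filter. Its call ended with a replicate block and without replicate 1 of the ATG7-/- cells (adjusted p = 0.0507). MRPS15 (0.92 ± 0.33) and MRPS35 (1.52 ± 0.56) had adjusted p-values of 0.0351 and 0.038, which ran up to 0.0744 and 0.0745 when single libraries were left out, and they kept their calls in 9 and 7 of 18 such fits. Both calls ended with coding transcripts alone and with a replicate block. That of MRPS35 also ended without the filter and with sample weights.

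Of the 7 genes that fell, 3 belong to the mitochondria-specific part of the small subunit. MRPS33 had 0, 6.41 and 20.8 TPM (lowest, median, highest) in EVs, against 7.81, 15.7 and 25.8 TPM in cells, a log2 fold change of -1.80 ± 0.55 (adjusted p = 0.0159). MRPS25 had 8.47, 15.7 and 45.6 TPM in EVs and 22.3, 28.97 and 40.6 TPM in cells (-0.97 ± 0.28, adjusted p = 0.0129). MRPS22, in which mutations cause inherited mitochondrial disease, had 0, 3.81 and 10.7 TPM in EVs and 4.91, 7.76 and 14.3 TPM in cells (-1.13 ± 0.35, adjusted p = 0.0181). The ranges of EVs and cells overlapped in all 3. With coding transcripts alone all 3 calls ended, and MRPS22 was then at -0.21; without the scaling those of MRPS25 and MRPS22 ended. The large-subunit genes MRPL9 (-1.74 ± 0.48, adjusted p = 0.00884), MRPL19 (-1.63 ± 0.57, adjusted p = 0.0306), MRPL51 (-1.18 ± 0.42, adjusted p = 0.0337) and MRPL40 (-1.20 ± 0.47, adjusted p = 0.0491) also fell. The calls of MRPL9 and MRPL40 ended with coding transcripts alone, and those of MRPL19, MRPL51 and MRPL40 without the scaling. With 1 library left out, MRPL19, MRPL51 and MRPL40 kept their calls in 12, 9 and 4 of 18 fits, with adjusted p-values of up to 0.063, 0.0675 and 0.101. Of the genes that fell, MRPS33 and MRPL40 share no exon positions with another gene. Each of the others lies opposite exons of a protein-coding gene with a higher mean TPM in EVs than its own. These are MRPS25 with NR2C2 (1197 positions), MRPL51 with NCAPD2 (486) and MRPL9 with OAZ3 (333). MRPL19 lies opposite GCFC2 (132) and MRPS22 opposite COPB2 (86). Whether reads were shared was not tested. MRPS28 was at -1.65 ± 0.77 and did not pass (adjusted p = 0.095).

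By role, the 17 small-subunit genes with a bacterial counterpart had 2 that rose (11.8%) and 0 that fell, and the 9 without one had 1 that rose (MRPS35) and 3 that fell (33.3%, where 36.4% of all genes fell and 7.66% rose). Among large-subunit genes with a bacterial counterpart, 3 rose and 2 fell of 29 tested, and of those without one 4 rose and 2 fell of 18 tested. Median log2 fold changes were 0.07, -0.38, 0.14 and 0.17 in these 4 sets, against -0.61 for all genes and -0.19 for protein-coding genes. Of the 13998 protein-coding genes tested, 1632 rose and 3393 fell. A difference between the sets was not tested.

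**Figure D3:**
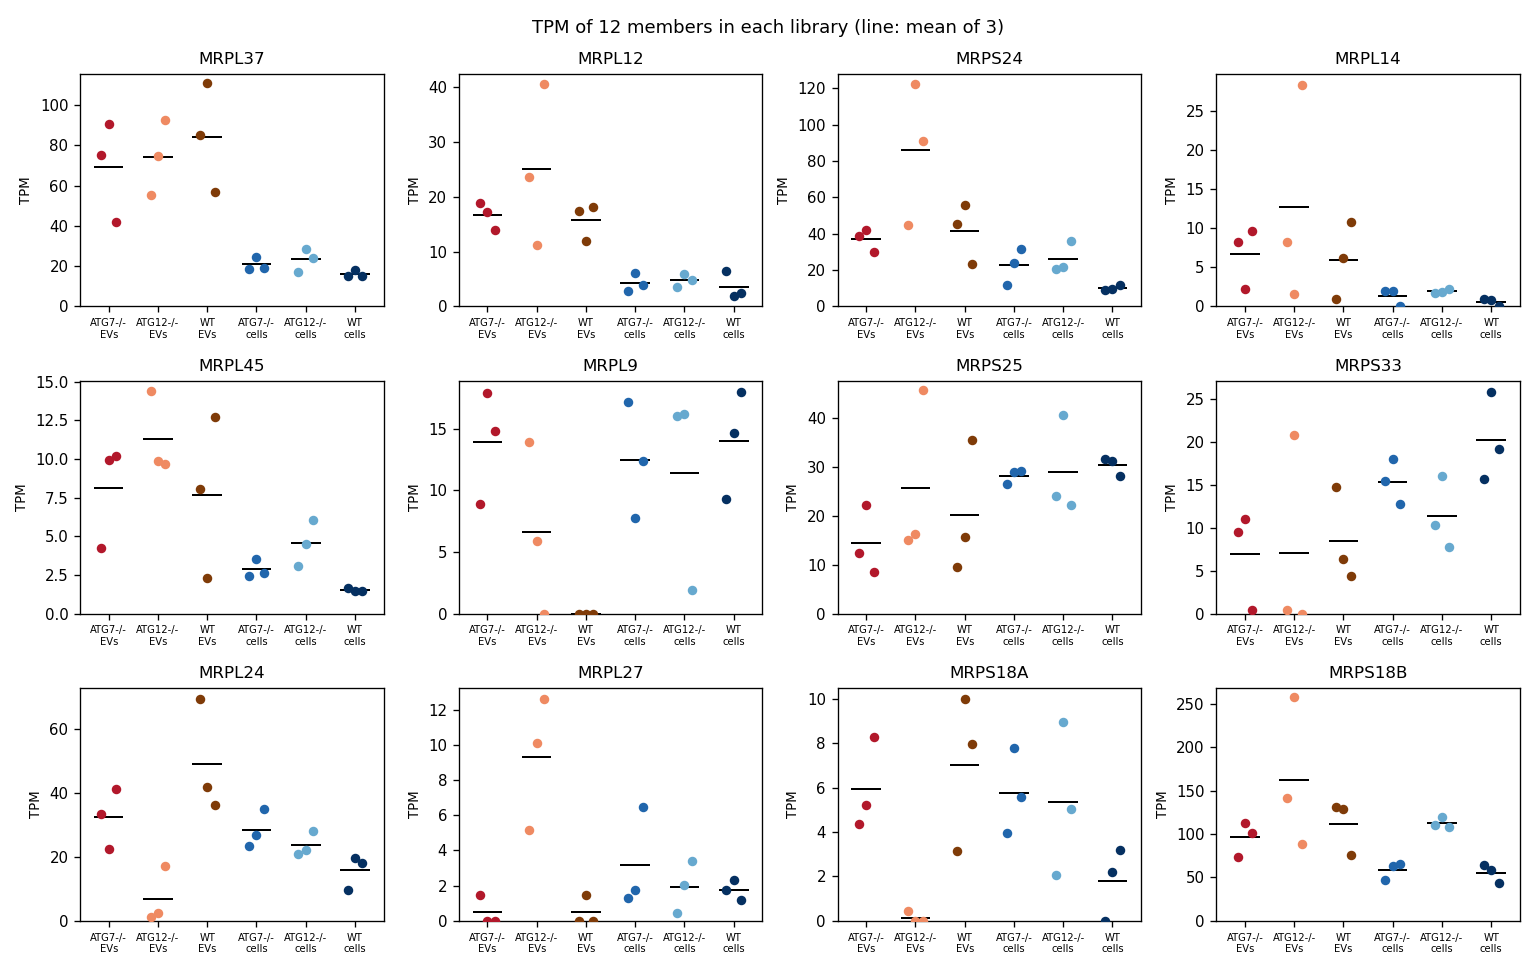
TPM (vertical axes) of 12 genes in each of the 18 libraries, by group (horizontal axes); points are libraries and lines are means of 3. MRPL37 and MRPL12 are above the cell libraries in every EV library, MRPL9 is listed at 0 in all 3 wild-type EV libraries, and MRPS18A lies between 0 and 0.450 TPM in ATG12-/- EVs.

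Within single genotypes fewer genes passed. In ATG7-/- EVs against ATG7-/- cells, MRPL37 and MRPL12 rose and none fell (2 of 75; 11.4% of all genes). With the ATG7-/- EV replicate 1, the ATG7-/- cell replicate 1 or the ATG7-/- cell replicate 3 left out, the count was 0. In ATG12-/- EVs against ATG12-/- cells, MRPL12, MRPL37 and MRPS24 rose and MRPL24, MRPS18A and MRPS22 fell (6 of 75; 11.2% of all genes). The count was 1 without the ATG12-/- cell replicate 1 or 3, and 3 without the ATG12-/- EV replicate 2 or 3 or the ATG12-/- cell replicate 2. In wild-type EVs against wild-type cells, MRPL37, MRPL38, MRPL12 and MRPS24 rose and MRPL40 and MRPL9 fell (6 of 75; 24.7% of all genes), and this count was 4 to 8 with 1 library left out. MRPL9, a large-subunit protein with a bacterial counterpart, was listed at 0 in all 3 wild-type EV libraries, against 9.27, 14.7 and 17.99 TPM in wild-type cells (adjusted p = 0.00296, a call that ended with coding transcripts alone). It was present in ATG7-/- EVs, at 8.89, 17.9 and 14.9 TPM, and in ATG7-/- cells, at 17.2, 7.77 and 12.4 TPM. Each comparison set the EVs of a genotype against its own cells, but all 18 libraries gave 1 shared estimate of the spread. Calls repeated across genotypes are therefore not independent. With only a genotype's own libraries in the fit, the calls of MRPL12, MRPL24, MRPS22 and MRPS24 in ATG12-/- ended. Those of MRPL12 and MRPL40 in wild type ended too. A difference between genotypes was tested only by the interaction below.

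Loss of ATG7 or ATG12 gave no call among the 78 genes in EVs. In ATG7-/- EVs against wild-type EVs, 0 of 67 genes tested passed, where 0.141% of all genes did, with 3 higher and 0 lower at an unadjusted p of 0.05 (7.41% of all genes, either way). Those with the smallest p were MRPL9 and MRPL11. MRPL11, at the base of the stalk, had 13.8, 23.8 and 5.82 TPM in ATG7-/- EVs, against 1.32, 3.71 and 0 TPM in wild-type EVs (log2 fold change 2.65 ± 0.95, adjusted p = 0.56). MRPL9 was at the values above in ATG7-/- EVs and at 0 in all 3 wild-type EVs (adjusted p = 0.284). MRPL48 and MRPL54 had the smallest p among genes lower in ATG7-/- EVs, with adjusted p-values of 0.79 and 0.727. In ATG12-/- EVs against wild-type EVs, 0 of 67 passed (0.105% of all genes), with 4 higher and 2 lower at an unadjusted p of 0.05, which 7.94% of all genes reached, a share near that of the 67. MRPL27, which lies near the peptidyl transferase centre, had 5.18, 10.1 and 12.6 TPM in ATG12-/- EVs, against 0, 1.48 and 0 TPM in wild-type EVs (2.84 ± 0.67, adjusted p = 0.264). MRPL24, which lies at the exit tunnel, had 1.18, 2.36 and 17.0 TPM in ATG12-/- EVs, against 69.3, 41.8 and 36.1 TPM in wild-type EVs (-3.17 ± 0.75, adjusted p = 0.266). In both genes the groups did not overlap, nor did they in MRPS18A and MRPS34 below, which held for 11.3% of all genes. These genes were named for their small p, and how many of the 67 had no overlap was not counted. When the fit also drew on the cell libraries, MRPL27 and MRPL24 passed, with adjusted p-values of 0.045 and 0.0235. MRPS18A, which despite its name sits in the large subunit, had 0.450, 0 and 0 TPM in ATG12-/- EVs and 3.17, 10.0 and 7.95 TPM in wild-type EVs (-2.63 ± 0.66, adjusted p = 0.299). MRPS34, a mitochondria-specific small-subunit protein, had 25.3, 25.6 and 46.6 TPM in ATG12-/- EVs and 10.96, 14.3 and 7.15 TPM in wild-type EVs (1.56 ± 0.54, adjusted p = 0.524); with coding transcripts alone its log2 fold change was -2.38.

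The cells gave no call either. In ATG7-/- cells against wild-type cells, 0 of 68 genes passed (0.2% of all genes), with 8 higher and 1 lower at an unadjusted p of 0.05, near the 14.4% of all genes that reached it. MRPS34 had 28.5, 34.0 and 23.1 TPM in ATG7-/- cells, against 12.9, 9.95 and 16.6 TPM in wild-type cells (1.14 ± 0.25, adjusted p = 0.117). MRPS31, also of the small subunit, had 2.62, 1.93 and 1.85 TPM in ATG7-/- cells, against 6.75, 8.20 and 4.53 TPM in wild-type cells (-1.18 ± 0.35, adjusted p = 0.2), and was at 2.08 with coding transcripts alone. MRPL38 and MRPL3 had adjusted p-values of 0.245 and 0.358, and MRPL3 turned from -0.38 to 2.84 with coding transcripts alone. In ATG12-/- cells against wild-type cells, 0 of 68 passed (0.134% of all genes), with 7 higher and 2 lower at an unadjusted p of 0.05, near the 15% of all genes that reached it. MRPS18B had 111, 120 and 108 TPM in ATG12-/- cells, against 64.3, 58.1 and 43.7 TPM in wild-type cells (1.06 ± 0.21, adjusted p = 0.114). MRPL21 had 7.07, 5.55 and 5.22 TPM in ATG12-/- cells, against 2.33, 2.94 and 1.71 TPM in wild-type cells (1.08 ± 0.26, adjusted p = 0.155). MRPS31 and MRPS33 had the smallest p among genes lower in ATG12-/- cells, at -1.17 ± 0.35 and -0.77 ± 0.32 (adjusted p = 0.204 and 0.32), and MRPS33 was at 0.29 with coding transcripts alone. The groups did not overlap for MRPS34 and MRPS31 in ATG7-/- cells or for MRPS18B, MRPL21 and MRPS31 in ATG12-/- cells. In these comparisons 19.9% and 23.6% of all genes had no overlap. These genes were named for their small p, and how many of the 68 had no overlap was not counted. Both knockouts were set against the same wild-type libraries, so their values are not independent.

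Whether the EV-to-cell difference itself differed between a knockout and wild type was tested by interaction, and 0 of 75 genes passed for ATG7 (0.284% of all genes; 2 higher and 0 lower at an unadjusted p of 0.05, against 8.91% of all genes) and 0 of 75 for ATG12 (0.268% of all genes; 4 higher and 2 lower, against 10.1%). The smallest adjusted p-values among the genes named here were 0.12 for MRPS18A (-3.63 ± 0.84) and 0.122 for MRPL24 (-3.46 ± 0.82), both for ATG12. A p that misses the threshold in 3 against 3 libraries does not show that levels were alike.

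In the deposited estimates, much of the summed TPM of the 78 genes was assigned to transcripts not annotated as coding. The split of a gene's level among its transcripts was estimated from reads of 50 bases. Whether such reads could tell these transcripts apart was not tested. TPM is also scaled by transcript length, so the shares below are not shares of reads. Transcripts typed as protein coding held 31.7% to 46.7% of the summed TPM in EVs and 36.9% to 50.6% in cells, against 42.0% to 46.2% and 47.9% to 50.5% over all protein-coding genes and 57.2% to 74.5% and 54.5% to 63.0% over genes of the cytosolic ribosome. Processed transcripts, spliced forms with no annotated reading frame, held 23.6% to 47.7% in EVs and 23.6% to 34.1% in cells, and retained-intron transcripts 13.4% to 43.0% and 19.2% to 27.1%. The transcript with the largest share was typed protein coding for 43 of 78 genes in EVs and 48 in cells, and it was the same transcript in both for 40. For MRPS18B a retained-intron transcript of 512 nt held 67.2% of the gene's TPM in EVs and 83.6% in cells, and for MRPL38 a processed transcript of 534 nt held 55.1% and 66.9%. For MRPL42 the leading transcript was a processed transcript of 567 nt in EVs (87.0%) and a protein-coding one of 15582 nt in cells (36.7%). For MRPL12 and MRPL14 the only transcript with signal was protein coding in both. With coding transcripts alone, 7 genes were called higher and 7 lower; 8 of the 17 kept their call, and MRPL42 was called in the opposite direction.

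**Figure D4:**
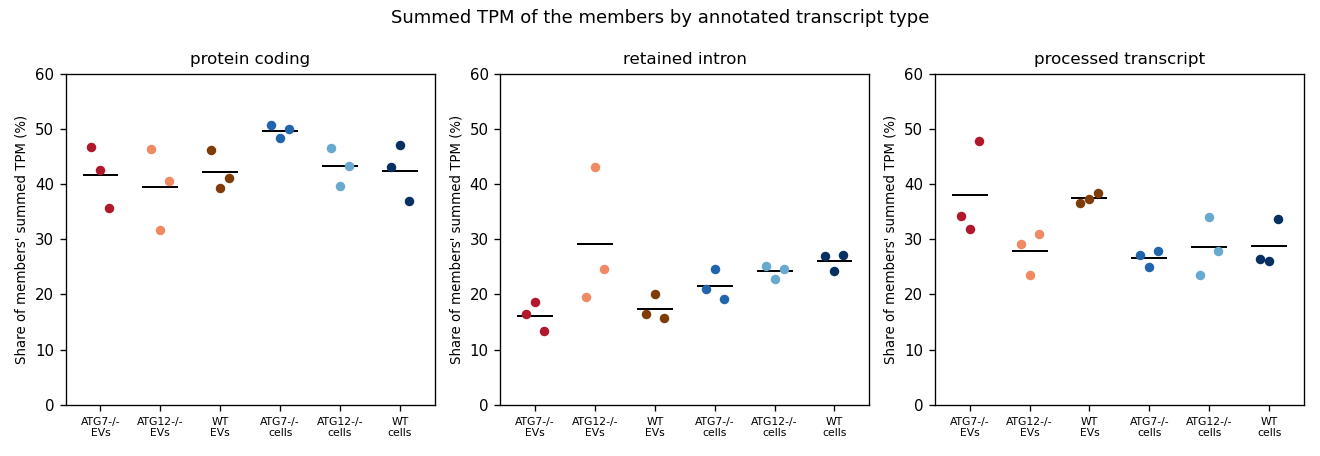
Share of the 78 genes' summed TPM (vertical axes, %) held by transcripts annotated as protein coding, retained intron and processed transcript in each library, by group; points are libraries and lines are means of 3. Retained-intron transcripts reach 43.0% in 1 ATG12-/- EV library and 27.1% or less in every other library.

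Neighbouring features may bear on several of these levels. Exons of 29 of the 78 genes lie opposite exons of another gene, and 12 noncoding features lie opposite 11 of them. MRPS9, a conserved small-subunit protein, was at 0.378 ± 0.700 TPM in EVs and 0.774 ± 0.791 TPM in cells, while UTAT33, annotated opposite it, was at 122 ± 39.3 TPM in EVs and 120 ± 27.7 TPM in cells (SD, n = 9 each) and was above MRPS9 in 18 of 18 libraries. Coding exon 10 of 11 of MRPS9 lies wholly inside an exon of UTAT33 on the other strand, and is shown because a read from it would fit both genes unless its strand were used. It is printed from GENCODE release 29 (GRCh38, chr2:105097155-105097324, plus strand).
MRPS9 exon: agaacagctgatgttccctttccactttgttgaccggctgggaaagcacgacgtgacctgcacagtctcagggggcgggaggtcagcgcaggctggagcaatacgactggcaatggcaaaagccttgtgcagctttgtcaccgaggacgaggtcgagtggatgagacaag
AC013489.3 opposite MRPS11 was at 60.1 ± 26.9 TPM in EVs and 43.8 ± 8.14 TPM in cells, against 5.45 and 5.11 TPM for MRPS11. AC011511.2 opposite MRPL4 was at 72.1 ± 14.6 TPM in EVs and 54.0 ± 12.8 TPM in cells, against 16.1 and 4.96 TPM for MRPL4. AC011511.3, also opposite MRPL4, had the lower mean in EVs, at 79.2 ± 73.5 TPM against 139 ± 38.9 TPM in cells. Opposite MRPL9, AL589765.7 was at 43.1 ± 20.02 TPM in EVs and 55.7 ± 9.68 TPM in cells (SD, n = 9 each), and above MRPL9 in 18 of 18 libraries. The protein-coding gene OAZ3, which shares more exon positions with MRPL9 on the other strand, was at 109 ± 40.6 TPM in EVs. In cells OAZ3 was at 37.8 ± 11.2 TPM, and it too was above MRPL9 in 18 of 18 libraries. Which strand such reads came from was not tested. These pairs were chosen after their values were seen. Other noncoding features were well below the gene they lie opposite, such as MRPL23-AS1 opposite MRPL23 (1.09 against 19.1 TPM in EVs) and AC087289.2 opposite MRPL38 (0.568 against 73.1 TPM).

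**Figure D5:**
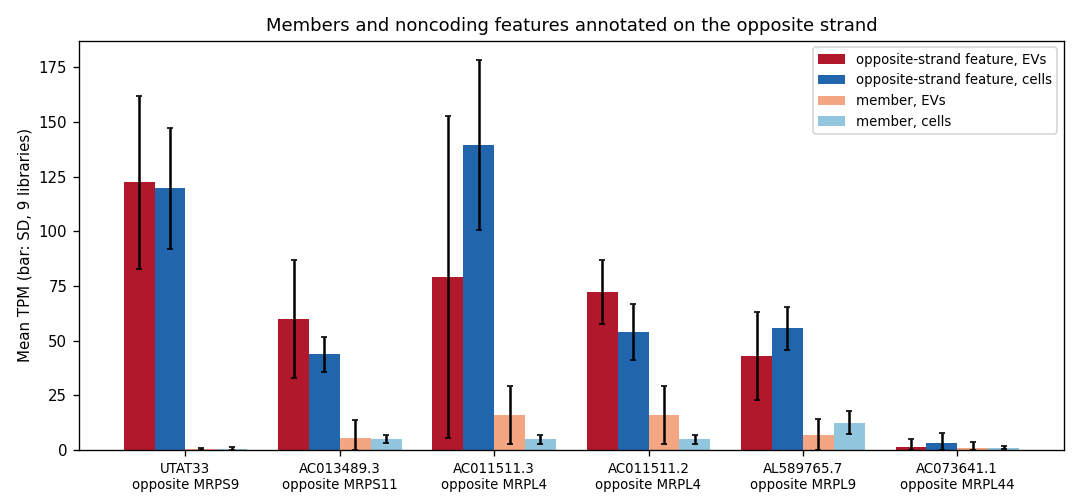
Mean TPM (vertical axis; bars, SD over 9 libraries, cut at 0) in EVs and cells of 6 noncoding features annotated on the opposite strand and of the gene each lies opposite. UTAT33 averages 122 TPM in EVs and 120 TPM in cells, and MRPS9 0.378 and 0.774 TPM.

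Genes that work with these proteins were set beside them, from lists chosen with earlier results of these data known. Their counts stand against the 7.66% of all genes that rose in EVs and the 36.4% that fell. Of the 13998 protein-coding genes tested, 1632 rose and 3393 fell. The protein genes of mitochondrial DNA, whose mRNAs these ribosomes translate, all fell in EVs: 13 of 13 passed, with a median log2 fold change of -3.21, and MT-ND5 was at 119 ± 31.9 TPM in EVs and 1171 ± 184 TPM in cells (SD, n = 9 each). Genes of the cytosolic ribosome went the other way, with 60 of 83 tested higher and 4 lower and a median of 1.74. Of 22 assembly factors 2 rose (9.09%, near the share of all genes) and 2 fell (9.09%), among them the rRNA chaperone ERAL1 (25.8 ± 11.3 TPM in EVs, 5.64 ± 1.75 TPM in cells, adjusted p = 0.000382) and the rRNA methyltransferase TFB1M (3.25 ± 4.29 TPM in EVs, 10.9 ± 6.36 TPM in cells, adjusted p = 0.000532). Of 14 translation factors 1 rose (7.14%) and 4 fell (28.6%), both near the shares of all genes, led by the release factor MTRF1L (9.56 ± 3.21 TPM in EVs, 50.9 ± 8.42 TPM in cells, adjusted p = 1.75e-07). Of 5 ribosomal subunits with other names, 4 were tested and AURKAIP1 rose (14.2 ± 9.81 TPM in EVs, 4.22 ± 3.04 TPM in cells, adjusted p = 0.0231; SD, n = 9). In neither knockout, in EVs or in cells, did a gene of these lists pass. Of 75 pseudogenes named after MRPL or MRPS genes, 53 were at 0 in all libraries, and among 14 tested 1 rose (7.14%) and 6 fell (42.9%), again near those shares. The one that rose, MRPL50P2, was at 91.9 ± 37.9 TPM in EVs and 19.0 ± 9.66 TPM in cells (adjusted p = 0.000331), while MRPL50 itself was at most 1.49 TPM in any library. Reads of near-identical copies can be split between them, so levels of such pairs are uncertain.

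Promoters of these genes are known to carry sites for nuclear factors that link the nucleus to mitochondrial activity. RefSeq promoters (GRCh38.p14, 250 bases before to 50 after the start) were matched by symbol for 69 of the 78 genes, and exact letters were searched on both strands. CCGGAAG, a core of the GABP site, was in 29 of 69 (42.03%), against 10.67% of 27305 promoters. AAGATGGCG, a YY1 core, was in 13 (18.84%), against 1.849%, and an NRF1 core (GCGCA, then any base, then GCGC) in 8 (11.59%), against 6.285%. Among the 10 genes that rose in EVs, 1 had the GABP letters, 4 the YY1 letters and 3 the NRF1 letters, and among the 7 that fell 4, 0 and 1 had them. The promoters of MRPL38 and MRPS24, which rose, and MRPS22, which fell, are shown with these letters in capitals (chr17:75904835-75905134, minus strand; chr7:43869468-43869767, minus strand; chr3:139343744-139344043, plus strand). MRPL38 has both the GABP and the YY1 letters, MRPS24 the YY1 letters near its start, and MRPS22 the GABP letters at 3 places.
MRPL38: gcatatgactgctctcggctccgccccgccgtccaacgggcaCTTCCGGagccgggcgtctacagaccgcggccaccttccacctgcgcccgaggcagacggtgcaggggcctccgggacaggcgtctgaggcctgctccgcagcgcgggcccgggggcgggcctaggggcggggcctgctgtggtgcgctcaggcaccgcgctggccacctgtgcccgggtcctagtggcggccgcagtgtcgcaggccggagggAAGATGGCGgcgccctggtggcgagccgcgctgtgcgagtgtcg
MRPS24: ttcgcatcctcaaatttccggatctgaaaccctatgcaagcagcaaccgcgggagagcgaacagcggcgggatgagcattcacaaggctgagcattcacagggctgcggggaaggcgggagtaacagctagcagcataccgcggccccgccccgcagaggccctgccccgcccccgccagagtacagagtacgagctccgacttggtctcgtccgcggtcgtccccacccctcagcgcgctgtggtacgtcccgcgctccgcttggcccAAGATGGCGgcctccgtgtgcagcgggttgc
MRPS22: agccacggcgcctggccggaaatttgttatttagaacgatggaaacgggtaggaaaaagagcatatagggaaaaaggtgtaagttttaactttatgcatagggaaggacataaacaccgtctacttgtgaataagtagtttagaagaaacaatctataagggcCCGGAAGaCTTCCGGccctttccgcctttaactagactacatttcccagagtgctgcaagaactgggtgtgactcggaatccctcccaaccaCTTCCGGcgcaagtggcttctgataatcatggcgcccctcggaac
A match of letters does not show that a factor binds, and its relation to the level in EVs was not tested.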

How the data were processed

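The authors deposited 1 table of TPM for 203027 transcripts in 18 libraries. Per the labels' protocols, total RNA was made into stranded libraries with 22 cycles of amplification and read as single ends of 50 bases. Salmon 0.14 and DESeq2 appear, with no role, in the submitters' processing notes. Build, annotation and strand setting: not given in the sources used here. Identifiers matched GENCODE release 29 in 202941 cases; the 86 unmatched transcripts made up 0.0384% of a library at most. Coordinates come from that annotation (GRCh38).

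TPM were summed to 57865 genes. The filter kept genes reaching 1 TPM in 3 or more fitted libraries, and these were tested with limma 3.58.1 in R 4.3.3 on log2(TPM + 1), after median-of-ratios scaling, with a mean-variance trend. This scale understates changes of low genes. P-values are two-sided and adjusted by Benjamini-Hochberg over all genes tested, with a threshold of 0.05. EV contrasts between genotypes used the 9 EV libraries, cell contrasts the 9 cell libraries, and the rest all 18. Replicates are called biological by the labels, which do not say what was separate; p-values measure the spread between these libraries. The method was also run on simulated data, with changes larger than those called in the mean over genotypes. That run does not show how many changes of the reported size would be missed.

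The members, gene lists and tests were chosen with earlier results of these data known. Named genes are those past the threshold, the 5 highest in EVs and in cells, the 5 largest changes in each direction among genes of at least 5 TPM, those with the 2 smallest p in each direction of a knockout comparison, those at 0 in all EV or cell libraries, and up to 2 of each other list. The results of 1 gene list are not reported here. The text prints most of the named genes, and genes outside this rule are described only for detection, overlap or sequence. Alternatives were another pseudocount, no filter, no scaling, sample weights without a trend, a replicate block, no transcripts under 200 nt, coding transcripts only, other libraries in the fit, no genes with shared exons, and each library left out.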

Additional observations from a re-analysis of the deposited data

How the results depend on the processing

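TPM hold no depth, and 3 libraries a group with a within-group log2 SD near 1 limit what EV comparisons can detect. The count of genes called between EVs and cells in the mean of genotypes was 17, within 14 to 21 under 7 of 8 settings, 7 with shared-exon genes left out, and 12 to 26 with 1 library left out. In ATG7-/- EVs against ATG7-/- cells the count was 2; it was 0 with shared-exon genes left out or coding transcripts only, 4 with the other libraries left out of the fit, and 0 to 3 with 1 library left out. In ATG12-/- EVs against ATG12-/- cells it was 6, then 1 with shared-exon genes left out, 2 with the other libraries left out of the fit, and 1 to 5 with 1 library left out. In wild type it was 6, then 1 with shared-exon genes left out and 4 to 8 with 1 library left out. Counts of 0 became 2 for ATG12-/- EVs against wild-type EVs when all 18 libraries were fitted, 1 for the ATG7 interaction on 12 libraries, and 0 to 1 for the ATG12 interaction with 1 library left out (1 without ATG12-/- EV replicate 3); the other counts of 0 stayed at 0 under every alternative run. With coding transcripts only, rescaled to the original library total, the summed TPM was 3188 in EVs and 2875 in cells, and without transcripts under 200 nt 1572 and 1239. Coding transcripts only also reversed MRPL38 (-0.53) and MRPL42 (-1.30) between EVs and cells, MRPS34 in ATG12-/- EVs (-2.38), MRPL3 (2.84) and MRPS31 (2.08) in ATG7-/- cells and MRPS33 in ATG12-/- cells (0.29); the cause was not tested. No pairing by replicate number was seen: deviations of same-numbered libraries correlated at -0.021 to 0.026 between EVs and cells and -0.034 to 0.048 between genotypes. With 3 libraries a group this does not show whether same-numbered libraries were collected together. With the replicate number as a block the counts were 17 (13 of them among the 17), 1 in ATG7-/-, 3 in ATG12-/- and 5 in wild type, and 0 in each knockout comparison and interaction; the calls of MRPL12 within each genotype and of MRPS22 in the mean were among those not made.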
